A study of Mus musculus with 2 samples.

Results

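This account covers 41 mouse genes of cell proliferation and DNA replication, from the G1 cyclins through the replicative helicase to the proteins of the mitotic spindle, in lung epithelial cells. The members were taken from a list of replication, mitosis and cyclin genes, and every array probe whose RefSeq accession belongs to one of them was used, which gave 55 probes of 55681 on the array and 41 genes of 20660 with a named probe. There was 1 array of Mob1DKO cells and 1 array of WT cells, both from C57BL/6 mice aged 10 weeks. The labels spell out neither the alleles behind Mob1DKO nor the driver of the deletion, and nothing further about the genotype of the WT mice. From knowledge of the mouse line, Mob1DKO is read as loss of Mob1a and Mob1b, Hippo pathway adaptors that switch on the LATS kinases. With 1 array a group there is no replicate check, so no p-value is given and every difference compares these 2 preparations.

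Cells pass from G1 into DNA synthesis when D-type and E-type cyclins, with their kinases, inactivate the RB proteins and free E2F transcription factors. The minichromosome maintenance (MCM) helicase, loaded on origins in G1, then opens the DNA, and ribonucleotide reductase and thymidylate synthase supply the building blocks. Cyclins A and B with CDK1 and the transcription factor FoxM1 drive entry into mitosis, where kinesins, Aurora kinases and the spindle checkpoint separate the chromosomes. In the adult lung most epithelial cells rest outside the cycle, and the Hippo effectors YAP and TAZ are known to favour proliferation when the LATS kinases are inactive.

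Levels are log2 of the scanner's processed signal minus the 75th percentile of that array, and differences are Mob1DKO minus WT on this log2 scale. That percentile was 291 intensity units in Mob1DKO cells and 155 in WT cells, and 58.6% and 53.1% of probes were well above background there. Probes of different genes differ in how brightly they bind, so levels are compared within a probe and not between genes. Probes printed at 10 spots gave the technical SD of a single-spot difference, which was 0.48 for mean levels below -2, 0.25 between -2 and 0, and 0.089 from 0 upwards. It holds spot-to-spot error within an array and leaves out the spread between animals and preparations. Mob1b differed by -2.0 and -2.70 on its 2 probes and Mob1a by 0.07 on its single probe. Where these probes lie relative to any deleted part was not given in the labels. Xist differed by -2.29 and -2.22 on its 2 probes, so the sex of the animals and the genotype labels cannot be told apart in any value below. Markers of epithelial cells were present on both arrays, with 8 of 8 alveolar type 2, 5 of 6 alveolar type 1, 3 of 4 club and 6 of 6 ciliated cell genes measured.

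Most members differed little. A gene counts as measured where a probe of it passed the scanner's flag for signal well above background on at least 1 array, and takes the value of the brightest such probe. Of the 41 members 37 were measured, all of them on both arrays. A gene was called when its difference reached 1 in size, a 2-fold change, with the probe well above background on the brighter array. By this rule 1 member, Rrm2, was higher on the Mob1DKO array, where 3.79% of all 15099 measured genes were, and 1 member, Cdk1, was lower, where 2.91% of all genes were. The members' shares of 2.70% each way lie near that background. Among the 13866 genes measured on both arrays, as all 37 members were, 1.25% were higher and 1.43% lower. The median difference over members was -0.16, against 0.02 over all measured genes, and 25 of 37 members lay below 0, against 46.7% of all genes. A difference under 0.5 in size was found for 28 members, or 75.7%, against 81.2% of all genes. In bulk RNA, fewer cycling cells and less of a transcript per cell cannot be told apart.

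**Figure D1:**
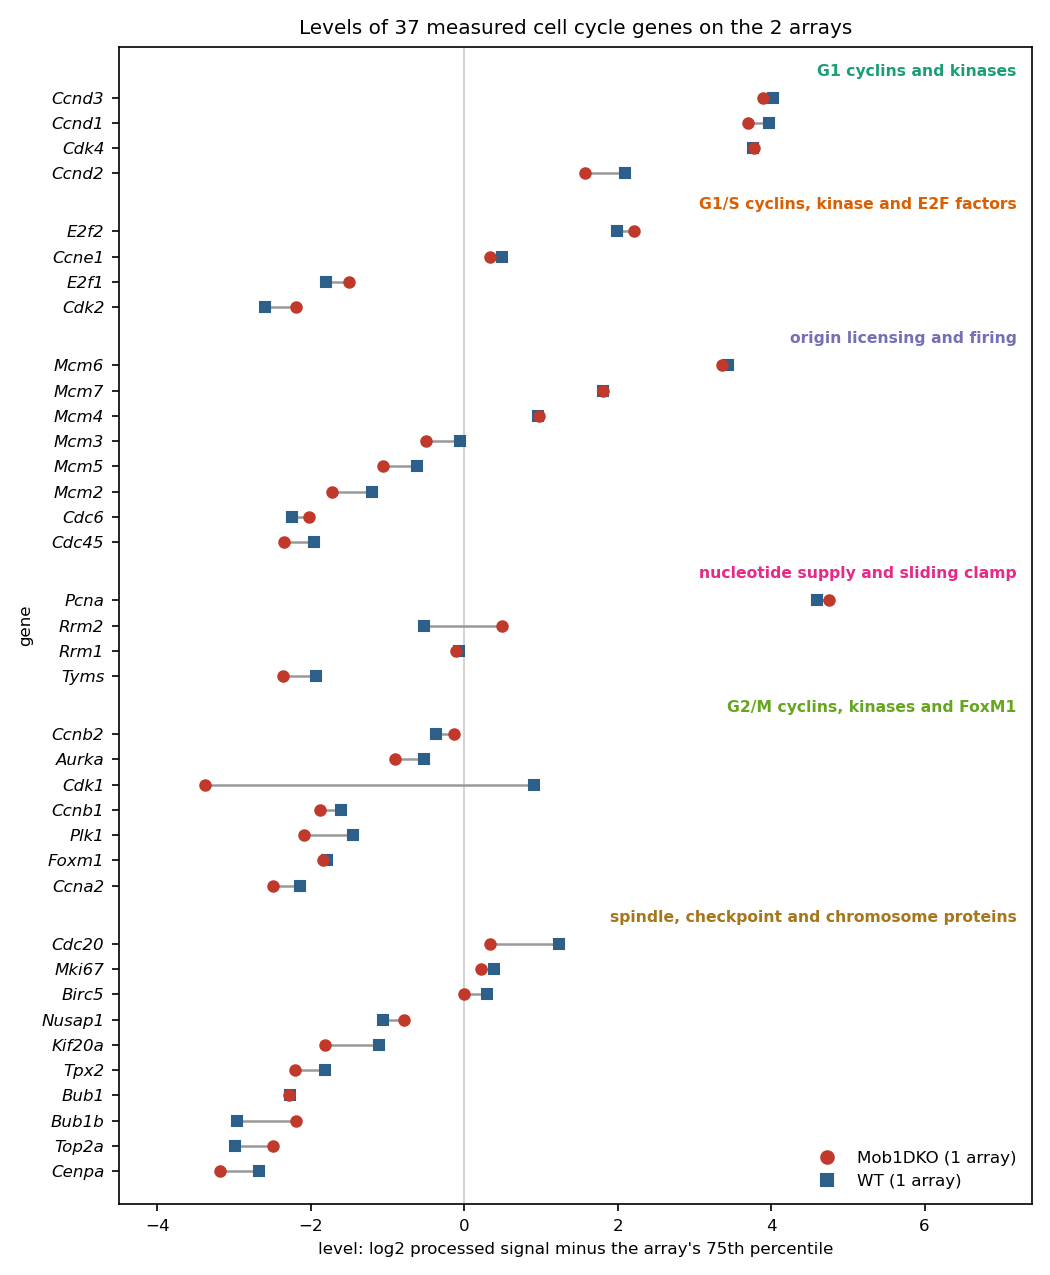
Level of each of 37 measured members on the Mob1DKO array (circles) and the WT array (squares), as log2 processed signal minus the array's 75th percentile, grouped by role and ordered by mean level. The 2 symbols lie close together for most genes, and those of Cdk1, at -3.38 and 0.91, lie farthest apart.

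The promoters of the 2 called genes, and of Cdc20 and Bub1b, which had the next largest difference each way, are shown because many genes of this kind share short control elements near the start of transcription. The sequences are the 250 bases before the annotated start from RefSeq on assembly GRCm38.p6, whereas the array grid names build mm9, and each is read 5′ to 3′ along the gene. Capitals mark the cell cycle homology region TTTGAA, the CCAAT box and the E2F letters TTTCCCGC, TTTCGCGC, TTTGCCGC or TTTGGCGC, searched on both strands. No 2 matches shown overlap. The windows are chr10:69352913-69353162 on the minus strand for Cdk1, chr12:24708004-24708253 on the plus strand for Rrm2, chr4:118437344-118437593 on the minus strand for Cdc20 and chr2:118597961-118598210 on the plus strand for Bub1b.
Cdk1: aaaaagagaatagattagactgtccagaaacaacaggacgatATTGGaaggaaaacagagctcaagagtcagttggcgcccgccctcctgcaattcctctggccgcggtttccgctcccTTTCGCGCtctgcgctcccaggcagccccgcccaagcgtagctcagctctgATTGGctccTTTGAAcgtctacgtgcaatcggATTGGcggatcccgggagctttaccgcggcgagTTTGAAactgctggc
Rrm2: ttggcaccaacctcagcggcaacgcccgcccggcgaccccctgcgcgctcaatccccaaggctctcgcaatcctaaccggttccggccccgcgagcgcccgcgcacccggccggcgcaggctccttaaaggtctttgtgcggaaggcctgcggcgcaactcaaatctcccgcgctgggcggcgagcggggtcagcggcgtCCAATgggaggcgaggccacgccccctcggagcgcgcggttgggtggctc
Cdc20: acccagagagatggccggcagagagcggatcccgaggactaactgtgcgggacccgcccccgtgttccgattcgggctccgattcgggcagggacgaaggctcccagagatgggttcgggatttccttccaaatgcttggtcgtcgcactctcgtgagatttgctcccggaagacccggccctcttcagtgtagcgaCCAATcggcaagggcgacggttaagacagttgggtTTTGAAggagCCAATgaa
Bub1b: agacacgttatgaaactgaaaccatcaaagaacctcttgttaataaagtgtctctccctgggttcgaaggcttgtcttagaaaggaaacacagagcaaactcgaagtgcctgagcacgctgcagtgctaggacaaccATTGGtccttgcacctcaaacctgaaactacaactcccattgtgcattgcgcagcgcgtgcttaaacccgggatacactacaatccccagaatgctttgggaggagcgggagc
The Cdk1 window held 2 TTTGAA elements, the nearer one 15 to 10 bases before the start, 3 CCAAT boxes and 1 E2F match. The Cdc20 window held 1 TTTGAA element and 2 CCAAT boxes, while the Rrm2 and Bub1b windows held 1 CCAAT box each.

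A promoter window was at hand for 32 of the 41 members. The CCAAT box was found in 75% of these genes, against 33.8% of all 32851 windows. The TTTGAA element was found in 28.1% of these genes against 16.0% of windows, and the E2F letters in 18.8% against 1.86%. The 8 measured members with TTTGAA had a median difference of -0.28 and the 22 without it -0.06. For the CCAAT box the medians were -0.13 over 23 members with it and 0.02 over 7 without it, and for the E2F letters -0.04 over 6 and -0.14 over 24. The member shares count genes with a match in any window listed for them. The background shares count single windows of all genes, measured or not, so the 2 are not like for like. These matches are letters in a window and were not tested as binding sites.

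Among the G1 genes, the 3 D-type cyclins, which carry growth signals to the cell cycle, lay slightly lower on the Mob1DKO array, though Ccnd1 and Ccnd3 turned above 0 under normexp, a model-based background correction. Ccnd2 was at 1.57 in Mob1DKO cells and 2.09 in WT cells, a difference of -0.52 or 5.87 technical SDs. Ccnd1, a cyclin that many mitogens induce, was at 3.69 in Mob1DKO cells and 3.97 in WT cells, a difference of -0.27. Ccnd3 was at 3.89 and 4.02 on its brighter probe, and at 2.37 and 2.66 on its second probe, in Mob1DKO and WT cells, differences of -0.13 and -0.28. None of the 3 reached 2-fold. With normexp in place of the processed signal, Ccnd2 stayed lower at -0.42, while Ccnd1 turned to 0.03 and Ccnd3 to 0.14. Normexp here adds an offset of 50 to each array before scaling, which shifts differences by an amount that depends on probe brightness.

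Cdk4, the kinase partner of the D cyclins, had 3 probes that disagreed in sign around 0. They gave 3.78, 2.61 and 1.78 on the Mob1DKO array and 3.76, 2.86 and 1.67 on the WT array, for differences of 0.02, -0.25 and 0.12. The related kinase Cdk6 was well above background on neither array. The median of the 4 measured G1 genes was -0.20, which turned to 0.082 under normexp.

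Of the 4 measured genes of the G1/S switch 3 lay above 0, of which E2f1 and Cdk2 turned below 0 under normexp. E2f2, an activating E2F factor, was at 2.22 in Mob1DKO cells and 1.99 in WT cells, a difference of 0.23. E2f1, the best known activating E2F, was at -1.50 and -1.80 in Mob1DKO and WT cells, a difference of 0.30 with a technical SD of 0.25. Cdk2, the partner of cyclins E and A, was fainter, at -2.19 in Mob1DKO cells and -2.60 in WT cells, a difference of 0.41 with a technical SD of 0.48. Cyclin E1 (Ccne1) had 2 probes that disagreed in sign, with differences of -0.16 on the brighter and 0.24 on the fainter one. Ccne2 was well above background on neither array. The median of the 4 measured genes was 0.26, but -0.13 under normexp, where E2f2 differed by 0.42, E2f1 by -0.09 and Cdk2 by -0.19.

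The 6 subunits of the MCM helicase fell into 3 that differed little and 3 that lay lower, a grouping made after the values were seen. Mcm4 was at 0.97 on both arrays, Mcm7 at 1.81 in Mob1DKO and 1.82 in WT cells, and Mcm6 at 3.36 and 3.44, so their differences ran from -0.07 to 0.01. Mcm2 was at -1.73 in Mob1DKO cells and -1.20 in WT cells, a difference of -0.53. Mcm3 was at -0.50 in Mob1DKO and -0.06 in WT cells, and Mcm5 at -1.06 and -0.62, differences of -0.45 and -0.44. In biochemical work Mcm4, Mcm6 and Mcm7 form a core with helicase activity, to which Mcm2 and the pair of Mcm3 and Mcm5 bind. The 3 lower subunits are also those with the fainter probes, with mean levels of -1.47 to -0.28 against 0.97 to 3.40, and a technical SD of 0.25 against 0.089. Whether probe brightness plays a part was not tested. Under normexp Mcm2, Mcm3 and Mcm5 were at -0.50, -0.28 and -0.53, and Mcm4, Mcm6 and Mcm7 at 0.17, 0.17 and 0.27. Its offset of 50 shifts faint and bright probes unequally, so that setting is no separate check of the grouping.

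Cdc6 loads the helicase onto origins and Cdc45 joins it when origins fire. Cdc6 was at -2.03 in Mob1DKO cells and -2.25 in WT cells, a difference of 0.22, and Cdc45 at -2.35 and -1.96, a difference of -0.39. Both differences lay within their technical SD of 0.48, and that of Cdc6 turned to -0.17 under normexp and to -0.12 with its dimmer probe. The second Cdc6 probe passed the background flag in Mob1DKO cells only, too faint to give a fold. The median of the 8 licensing and firing genes was -0.23.

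Rrm2, the regulated small subunit of ribonucleotide reductase, was the 1 member called higher. It was at 0.50 in Mob1DKO cells and -0.52 in WT cells, a difference of 1.01 or 2.02-fold, which is 4.11 technical SDs on a single probe. The difference lay just past the 2-fold line. It came to 0.998 after scaling on the median, just short of the line, and to 0.66 under normexp. Rrm1, the large subunit of the same enzyme, was at -0.11 in Mob1DKO and -0.07 in WT cells, a difference of -0.04 that turned to 0.085 under normexp. Pcna, the sliding clamp of DNA polymerases and the brightest member, was at 4.76 in Mob1DKO cells and 4.59 in WT cells, a difference of 0.17. Thymidylate synthase (Tyms) was at -2.36 and -1.93 in Mob1DKO and WT cells, a difference of -0.43 within its technical SD of 0.48. The median of these 4 genes was 0.06. Among 13866 genes measured on both arrays Rrm2 ranked 166 from the top.

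**Figure D2:**
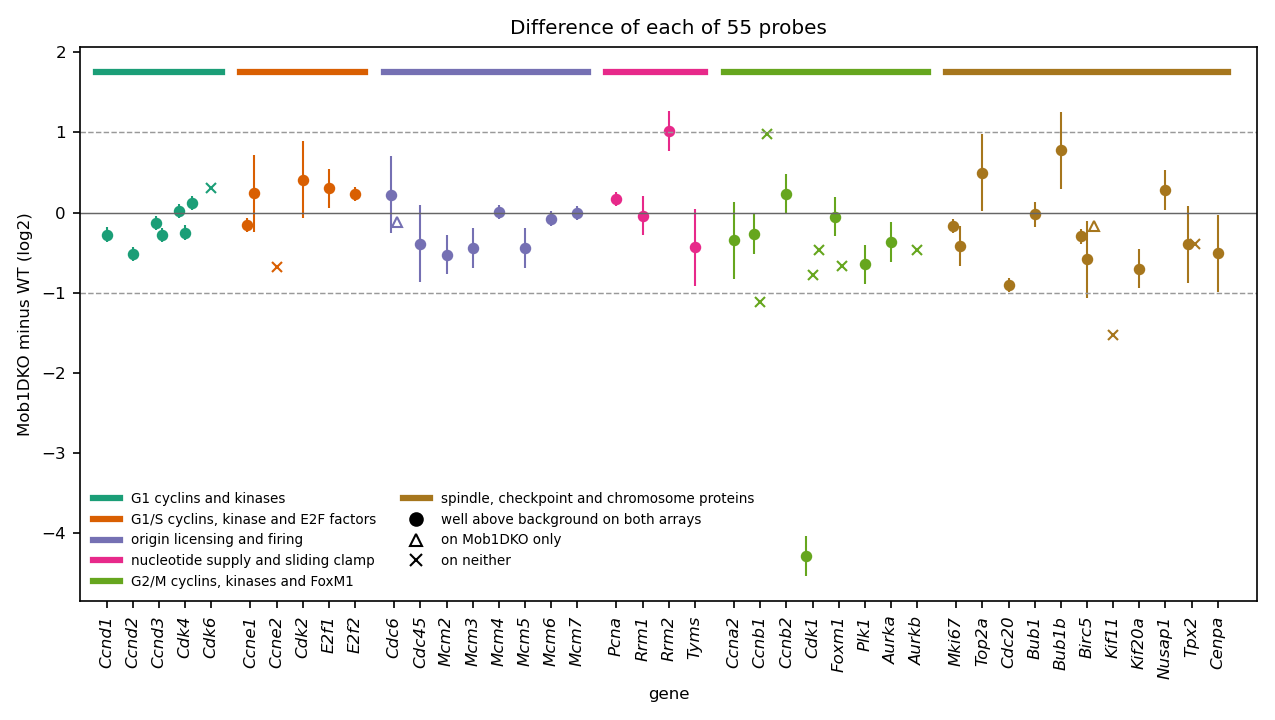
Mob1DKO minus WT difference (log2) of each of the 55 probes, by gene and coloured by role, with bars of 1 technical SD on probes well above background on both arrays. Dashed lines mark 2-fold, and past them among filled points lie Rrm2 at 1.01 and Cdk1 at -4.28, while crosses were well above background on neither array.

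Cdk1, the kinase that drives mitosis and was once named Cdc2a, showed the largest difference of the 37 measured members. Its brightest probe was at -3.38 in Mob1DKO cells and 0.91 in WT cells, which is a processed signal of 28.1 against 291 intensity units. The difference of -4.28 is 19.5-fold lower in Mob1DKO cells and ranks as the second lowest of 13866 genes measured on both arrays. A second probe read -4.46 in Mob1DKO and -3.69 in WT cells, and the last one read -6.19 and -5.72, and these probes were well above background on neither array. The 3 probes carry the same RefSeq accession, so the call rests on 1 probe of 3. Relative to the median of all genes, the difference ran from -4.32 to -2.41 over the other processing settings and stayed past 2-fold in each of them. Other probe rules could not move the Cdk1 difference, since only this probe passed the background flag.

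The partners and regulators of Cdk1 did not share a change of that size. Cyclin B2 (Ccnb2) was at -0.13 in Mob1DKO cells and -0.36 in WT cells, a difference of 0.23. Cyclin B1 (Ccnb1) was at -1.88 and -1.61 in Mob1DKO and WT cells, a difference of -0.26, with 2 further probes well above background on neither array. Cyclin A2 (Ccna2) was at -2.49 in Mob1DKO cells and -2.14 in WT cells, a difference of -0.35. Foxm1, the transcription factor of the G2 and M gene programme, was at -1.84 and -1.79, a difference of -0.05.

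Plk1, a kinase of mitotic entry and exit, was at -2.09 in Mob1DKO cells and -1.44 in WT cells, a difference of -0.65 with a technical SD of 0.25. Aurka, the centrosomal Aurora kinase, was at -0.90 in Mob1DKO and -0.53 in WT cells, a difference of -0.37. Aurkb, its relative at centromeres, was well above background on neither array. The median of the 7 measured G2/M genes was -0.35, and -0.30 without Cdk1.

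Of the spindle, checkpoint and chromosome genes none was called. Cdc20, the activator of the anaphase-promoting complex, came closest, at 0.33 in Mob1DKO cells and 1.23 in WT cells. Its difference of -0.90 is 10.2 technical SDs, and it ranked 268 from the bottom of 13866 genes measured on both arrays. Kif20a, a kinesin of cytokinesis, was at -1.81 in Mob1DKO and -1.11 in WT cells, a difference of -0.70. In the opposite direction, the checkpoint kinase Bub1b was at -2.19 in Mob1DKO cells and -2.97 in WT cells, a difference of 0.78 with a technical SD of 0.48 that came to 0.02 under normexp.

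Bub1, the checkpoint kinase related to Bub1b, was printed at 10 spots, so its technical error could be measured directly. Its spots ran from -2.53 to -2.01 with a median of -2.34 on the Mob1DKO array, and from -2.62 to -1.91 with a median of -2.25 on the WT array, where 1 spot carried an outlier flag. The spot values of the 2 arrays overlapped. The mean difference was -0.02 with a technical SE of 0.079.

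Mki67, which encodes the Ki-67 antigen used to stain cycling cells, had 2 probes, both slightly lower. They were at 0.22 and -0.45 on the Mob1DKO array and 0.39 and -0.03 on the WT array, differences of -0.16 and -0.42. Birc5, the survivin subunit of the chromosomal passenger complex, was at 0.00 in Mob1DKO and 0.30 in WT cells on its brightest probe, a difference of -0.30, and its second probe differed by -0.58. Top2a, the topoisomerase that untangles sister chromatids, was at -2.49 in Mob1DKO cells and -2.98 in WT cells, a difference of 0.50 with a technical SD of 0.48 that turned to -0.17 under normexp. The spindle proteins Nusap1 and Tpx2 differed by 0.28 and -0.39, and the centromeric histone Cenpa by -0.51. Kif11, the motor that pushes the spindle poles apart, was well above background on neither array. The median of the 10 measured genes was -0.23.

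At the level of probes, 43 of 55 were well above background on both arrays, 2 in Mob1DKO cells only and 10 on neither. By the 2-fold rule 1 of the 45 measured probes was higher, where 5.81% of all measured probes were, and 1 was lower, where 3.7% were. Of the 43, 29 lay below 0, against 52.5% of all 28708 such probes. A difference past 2 technical SDs was seen on 12 of the 43, or 27.9%, against 30.6% of all such probes, with 2 higher and 10 lower, where 4297 were higher and 4499 lower over all such probes. Of the 10 genes with several probes, 5 had at least 2 probes that passed the background flag on both arrays. Birc5, Ccnd3 and Mki67 had such probes of 1 sign, and those of Ccne1 and Cdk4 went both ways. No gene had such probes more than 0.40 apart.

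With the line drawn at 1.5-fold instead of 2-fold, Bub1b joined Rrm2 as higher, and Cdc20, Kif20a and Plk1 joined Cdk1 as lower. That makes 2 of 37 members higher, against 8.08% of all genes, and 4 lower, against 6.75% of all genes. Members of middling brightness lay lowest: among genes with a mean level between -2 and 0, 14 members had a median of -0.32, against 0.02 for all 3506 genes of that range. The 6 members above a level of 2 had a median of -0.03, against 0.01 for all 4387 genes there.

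**Figure D3:**
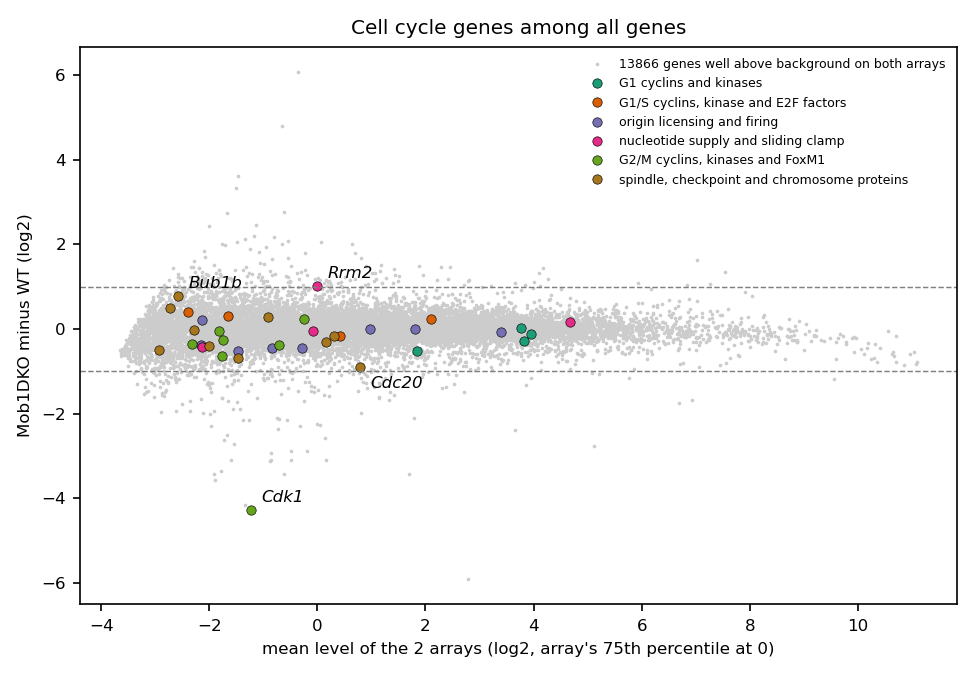
Mob1DKO minus WT difference against the mean level of the 2 arrays, both log2, for 13866 genes well above background on both arrays (grey) with the 37 members coloured by role. Cdk1 lies at -4.28 below the cloud, and the other members lie within it, Rrm2 at its upper edge.

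The other genes of the cell cycle, from 8 further lists with 169 genes, had few called genes but no shift below 0. Of 137 measured genes 6 were called higher, or 4.38%, against 3.79% of all genes, and 1 lower, or 0.73%, against 2.91% of all genes. Of those called higher, Mastl, Ckap2l and Espl1 passed the background flag on the Mob1DKO array only, and the bounds of Mastl and Espl1 fall short of 2-fold. On both arrays 132 genes were measured, with E2f6, Ccnf and Ndc80 called higher and Sgo1 lower. Among all genes measured on both arrays 1.25% were higher and 1.43% lower. Their median was -0.01 and 51.1% lay below 0, against -0.16 and 67.6% for the members. Among origin and fork proteins none of 41 measured genes was called, with differences from -0.84 for Pole, a subunit of the leading-strand polymerase, to 0.50 for geminin (Gmnn), the inhibitor of relicensing. The brightest of them, Gins3 and the single-strand binding protein Rpa1, differed by -0.03 and -0.11. None of 10 measured genes of nucleotide synthesis was called, with a median of 0.14, and Ctps (CTP synthase) and Impdh2 (a step to GTP) differed by 0.58 and -0.04.

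Among 16 measured genes of the RB, E2F and MuvB complexes the median was 0.17, and E2f6, a repressing E2F factor, was 2.58-fold higher, at 1.85 in Mob1DKO cells and 0.48 in WT cells. Among 11 measured CDK regulators the median was 0.11. Ccnf, which encodes the F-box protein cyclin F, was 2.54-fold higher, at 0.38 in Mob1DKO and -0.97 in WT cells. Mastl, a kinase that restrains a mitotic phosphatase, passed the background flag in Mob1DKO cells only, at -3.44, and was at least 1.01-fold higher there. A bound sets the brighter value against the lowest level well above background on the other array. None of 6 measured CDK inhibitor genes was called, with a median of 0.19. Cdkn1c, which encodes p57, differed by -0.55 and Cdkn1a, which encodes p21, by 0.18.

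Among 18 measured kinetochore and checkpoint genes the median was -0.12, with 1 called each way. Ndc80, a microtubule-binding subunit of the kinetochore, was 2.25-fold higher, at -0.99 in Mob1DKO cells and -2.16 in WT cells. Sgo1, the shugoshin that guards centromeric cohesion, was 2.47-fold lower, at -2.69 in Mob1DKO and -1.38 in WT cells. Among 16 measured spindle and cytokinesis genes the median was -0.03, and Ckap2l, a spindle protein, was at least 2.05-fold higher. Among 19 measured genes of condensin, cohesion and the anaphase-promoting complex the median was -0.11, and Espl1, the separase that cleaves cohesin, was at least 1.87-fold higher. Each of these called genes has a single probe.

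**Figure D4:**
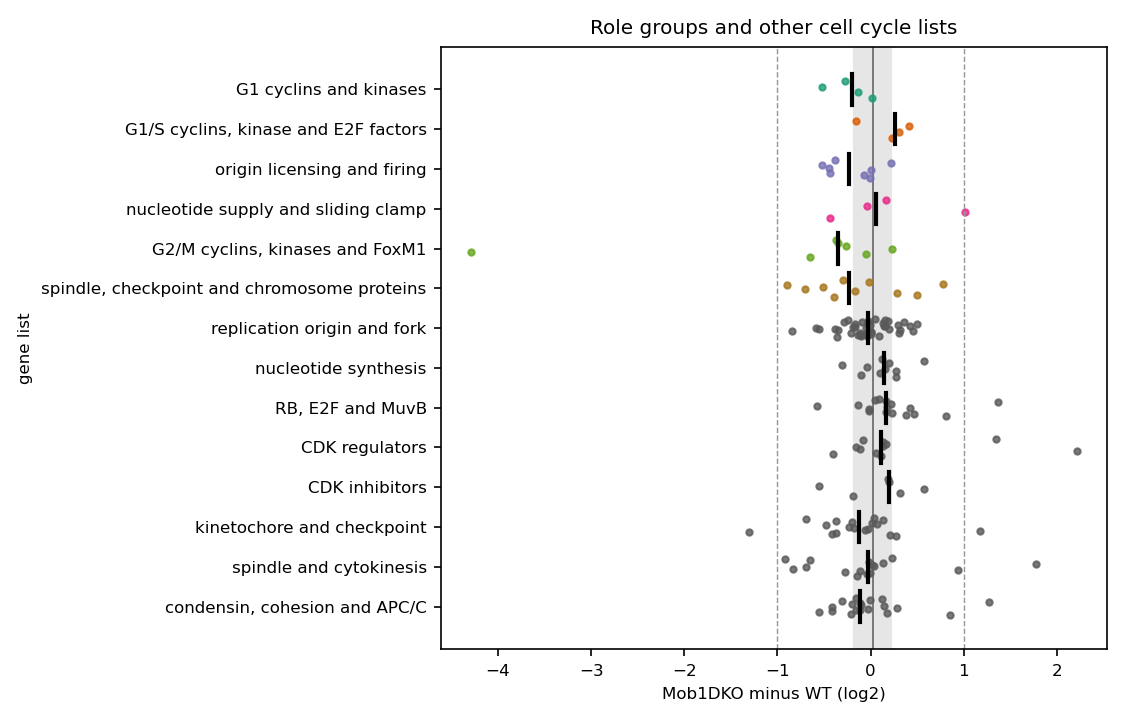
Mob1DKO minus WT difference (log2) of every measured gene in the 6 role groups of members (coloured) and the 8 other cell cycle lists (grey), with list medians as black bars, the median of all genes as a line and the middle 50% of all genes as a shaded band. The G2/M median of -0.35 and the G1/S median of 0.26 lie at opposite ends of the lists, but the G1/S median turned to -0.13 under normexp.

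Genes of other cell types moved beside these values, and their part in them was not tested. In the red cell list 4 of 6 measured genes, all globins, were lower. Hba-a1 and Hba-a2 differed by -3.10 and -3.42. Hbb-bs and Hbb-bt passed the background flag in WT cells only, and were at least 3.23-fold and 19.4-fold lower in Mob1DKO cells. The summed level of all 6 genes (relative to each array's 75th percentile, on the linear scale) was 2.61 in Mob1DKO cells and 15 in WT cells. The other measured red cell genes, Slc4a1 and Epor, differed by 0.09 and 0.30, and the erythroid genes Alas2 and Klf1 were well above background on neither array. In the basal cell list Krt5, Krt15 and Krt17 of 5 measured genes were lower, with differences of -2.89, -1.57 and -2.57. Trp63 and Ngfr differed by -0.23 and 0.03. The summed levels of this list were 28.4 in Mob1DKO and 40.2 in WT cells, mostly from Trp63. In the leukocyte list 6 of 10 genes were measured, with summed levels of 254 in Mob1DKO and 285 in WT cells, mostly from Lyz2, which alveolar type 2 cells also express. Cd79a, at least 3.38-fold higher, and the faint S100a8 were called higher there, while Ptprc and Mrc1 were well above background on neither array. Summed levels were 101 in Mob1DKO and 107.1 in WT cells over 7 mesenchymal genes, with Dcn as the largest part. The median difference of these genes was -0.27, with 4 below 0 and 3 above, from -0.97 for Acta2 to 0.18 for Dcn. Summed levels were 25 in Mob1DKO and 37.8 in WT cells over 2 measured endothelial genes, nearly all from Kdr. Among epithelial markers the median was -0.19 for alveolar type 2, 0.28 for alveolar type 1, -0.59 for club and 0.01 for ciliated cells.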

How the data were processed

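RNA of 1 Mob1DKO and 1 WT preparation was labelled with Cy3 and hybridised to 1-colour Agilent mouse arrays, per the labels' protocols. The deposited scanner files hold linear intensity for each spot. Their headers name Agilent Feature Extraction 10.7.1.1, while the submitters' processing notes name 9.5.1.1. The deposited processed signal is background-subtracted within the array and not normalized between arrays. The scanner software's flags per spot, which have no unit, were used as the authors deposited them. The series value table holds intensity values that the authors deposited with no account of how they were made in the sources used here.

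Spots of a probe were averaged, control spots left out, and log2 taken minus the array's 75th percentile. Gene names came from RefSeq accessions on assembly GRCm38.p6, which named 27235 probes and left 28446 unnamed. No spot was saturated. The number of arrays limits precision, and with 1 a group no test was run. Scaling and calling were tested on simulated data. The alternatives were other scalings (median, none, quantile, loess with span 0.3), normexp on the median spot signal with an offset of 50 (limma 3.58.1), the series value table, outlier spots left out, other rules for several probes, other background filters and a 1.5-fold line. Members and lists were chosen with earlier results of these data known. All members are described. Values in full were planned for called members, members whose probes oppose each other and the brightest of each role. From the other lists, called genes and, where none was called, the 2 brightest are named, and Pole and Gmnn were added as extremes after their values were seen.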

Additional observations from a re-analysis of the deposited data

How the results depend on the processing

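Cdk1 was lower by 2-fold or more under all 12 other settings. Rrm2 was called under 10 of them and lost its call after scaling on the median, where no member was higher (0), and under normexp (0). With no scaling all genes moved up by 0.91, so that 10 members were called higher, the member median became 0.75, and the role medians became 0.71 (G1), 1.17 (G1/S), 0.68 (licensing), 0.97 (nucleotide supply), 0.56 (G2/M) and 0.68 (spindle). Relative to the median of all genes these are unchanged from the main setting, and over the 11 settings that give a median the member median ran from -0.23 to -0.11 on that scale, below 0 in all 11. Scaling on the median and no scaling shift all genes alike, so they could not change this value. The filter for signal on both arrays could not change the members' own values. The 11 settings are thus not 11 separate checks. Under normexp the G1 median turned to 0.082 and the G1/S median to -0.13, and the nucleotide supply median was 0.22. Normexp adds an offset of 50 to each array before scaling. With 75th percentiles of 291 in Mob1DKO and 155 in WT cells, this shifts differences by an amount that depends on probe brightness. How far it accounts for these changes was not tested. With the mean of a gene's probes the spindle median was -0.32. Without a background filter 2 members were lower, since Kif11 was then counted though well above background on neither array. At 1.5-fold 2 members were higher and 4 lower. Naming probes by a gene name column was not run, since the scanner files used here hold accessions only, and normexp used the median spot signal for want of a mean signal column. Of 407 values of single members under other settings, 346 moved by less than 1 technical SD. Part of this count was fixed by design. Scaling on the median shifts every member by the same amount, less than 1 technical SD, and no scaling shifts every member by 0.91, more than 1 technical SD. Other probe rules cannot move genes with 1 probe above background. Background filters cannot move the 37 members, all measured on both arrays. No paired analysis was possible because each group has 1 array. Of the 37 members 10 had mean levels below -2, where the technical SD of a single-spot difference was 0.48, which limits what can be seen for them, less so for Bub1, which has 10 spots and an SD of 0.15.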

Other observations

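Multiciliated airway cells borrow relatives of cell cycle genes to multiply their centrioles without dividing. Of 7 measured genes of this kind none was called, and their median was 0.04. Mcidas, a geminin relative that acts in this programme, was at 8.14 in Mob1DKO cells and 8.11 in WT cells, and cyclin O (Ccno) was at 2.19 and 2.15. The values of Mcidas and Ccno each rest on a single probe. Foxj1, the transcription factor of motile cilia, was at 3.04 in Mob1DKO and 2.39 in WT cells, a difference of 0.65. Gmnc, another geminin relative, was fainter, at -3.02 in Mob1DKO cells and -2.08 in WT cells, a difference of -0.94 with a technical SD of 0.48 for probes of that brightness. Deup1, which builds centrioles in these cells, differed by -0.25 and Myb by 0.19.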
